A study of Mus musculus with 10 samples.

Results

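Potassium channels set the resting potential of cells and shape their firing. Their genes were described here by the histone marks found at them in Glast+ cells of the mouse retina. The set held every protein-coding gene with a symbol made of Kcn, letters and a number, other than Kcnj10, among the RefSeq genes of GRCm38.p6 (mm10 coordinates). These were 91 of the 21883 protein-coding genes on the chromosomes covered by the data, and they fell into 20 subfamilies by the letters after Kcn. Within the set, genes were chosen by name alone, while the potassium channel genes as a topic were picked with earlier results of these data known.

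Glast+ cells came from retinas of C57BL/6 mice at postnatal day 28. Glast, the glutamate transporter encoded by Slc1a3, marks Müller glia, the radial glia that span the retina. Chromatin immunoprecipitation and sequencing was done for 4 marks with 2 experiments each, Exp1 and Exp2, from 25000 cells per immunoprecipitation, and 2 input libraries were not analysed here. There was 1 cell population with no treatment, so the values below are comparisons between genes within these libraries, and no test between groups of samples was possible. The animals behind the experiments are not named in the labels, and differences between Exp1 and Exp2 may be technical.

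Müller glia take up the potassium that active neurons release and pass it to the vitreous and the vessels, largely through inward rectifier channels. Retinal neurons depend on voltage-gated channels, and photoreceptors in particular carry an outward potassium current in the inner segment that opposes the dark current. H3K4me3 lies at active or poised promoters and H3K4me1 at enhancers and promoter flanks. H3K27me3 is laid down by Polycomb complexes, and H3K9me3 marks heterochromatin. Promoters that carry H3K4me3 and H3K27me3 together are known as bivalent.

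The data are lists of enriched regions, called islands, as the authors' caller gave them. The lists held between 16761 and 20169 islands for H3K4me3, 37200 and 52342 for H3K4me1, 4105 and 7743 for H3K27me3, and 5621 and 9690 for H3K9me3. The H3K4 marks were called in steps of 200 bp, H3K9me3 in steps of 3000 bp and H3K27me3 in steps of 5000 bp, so a repressive island reaches a given gene more easily, and marks are not compared with each other at equal resolution. Depth is unknown because the files hold no read counts. H3K4me3 lay at 9 of 10 Müller glia markers, 8 of 10 rod markers and 8 of 8 cone markers, 5 of 6 bipolar, 5 of 6 amacrine, 2 of 4 horizontal and 4 of 6 ganglion cell markers, 1 of 4 markers of the pigment epithelium, and 0 of 4 each of microglia, endothelium and astrocytes. Aqp4, a defining water channel of Müller glia, had no island of any mark at its ends. The part of rods, cones or other neurons in the islands described below was not tested, and a mark in few of the cells cannot be told apart from a weaker mark in all of them.

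A mark was assigned to a gene where islands of both experiments reached within 1 kb of the same annotated end. Either end counted, because the gene table gives no strand. The states of neighbouring genes and of unlike promoters can be read beside their sequences, so 5 promoters are shown, from 250 bases before to 50 bases after an annotated start (RefSeq, GRCm38.p6), with each CG dinucleotide in capitals. CG-rich promoters are the usual sites of H3K4me3 and of Polycomb. The search for CG was for those letters, which read the same on either strand, and 95.4% of 21262 promoters of protein-coding genes hold at least 1, with a median of 13. Kcnj2 and Kcnj16 are neighbouring genes for inward rectifiers, shown as a marked and an unmarked promoter. Kcng3 is shown as a promoter with both H3K4me3 and H3K27me3, and it holds the most CG of the 10 such member promoters, whose median is 18.5. Kcnk18 is shown as a promoter with H3K27me3 alone, and it holds fewer CG than the median of 10 over the 7 such member promoters. That is more than the median of 2 over the 2855 protein-coding genes with H3K27me3 alone at the start. Kcna2 is shown because its H3K4me3 lay at this start inside the gene and not at the gene's end.
Kcnj2: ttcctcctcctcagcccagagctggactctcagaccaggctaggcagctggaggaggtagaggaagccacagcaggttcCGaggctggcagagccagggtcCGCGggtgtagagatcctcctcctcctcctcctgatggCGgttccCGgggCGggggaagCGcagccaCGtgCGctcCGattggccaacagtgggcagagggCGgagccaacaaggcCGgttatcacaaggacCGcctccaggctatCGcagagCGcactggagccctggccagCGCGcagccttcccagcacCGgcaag
Kcnj16: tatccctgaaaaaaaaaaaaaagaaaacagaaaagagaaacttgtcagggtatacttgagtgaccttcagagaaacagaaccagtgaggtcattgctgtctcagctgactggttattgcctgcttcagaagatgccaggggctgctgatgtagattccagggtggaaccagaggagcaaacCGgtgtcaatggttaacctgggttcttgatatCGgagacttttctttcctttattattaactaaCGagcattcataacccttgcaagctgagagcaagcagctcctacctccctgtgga
Kcng3: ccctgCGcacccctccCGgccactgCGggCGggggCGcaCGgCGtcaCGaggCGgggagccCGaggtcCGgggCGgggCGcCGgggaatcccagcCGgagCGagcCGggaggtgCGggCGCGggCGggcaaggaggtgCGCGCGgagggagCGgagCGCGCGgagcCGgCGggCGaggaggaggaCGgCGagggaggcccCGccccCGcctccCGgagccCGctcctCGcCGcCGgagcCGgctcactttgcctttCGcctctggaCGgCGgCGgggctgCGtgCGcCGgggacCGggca
Kcnk18: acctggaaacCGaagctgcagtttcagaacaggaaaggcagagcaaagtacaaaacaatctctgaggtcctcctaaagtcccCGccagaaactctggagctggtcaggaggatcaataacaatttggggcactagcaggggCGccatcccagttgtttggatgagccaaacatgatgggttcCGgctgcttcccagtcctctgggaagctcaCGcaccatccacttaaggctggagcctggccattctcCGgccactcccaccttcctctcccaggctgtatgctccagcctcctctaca
Kcna2: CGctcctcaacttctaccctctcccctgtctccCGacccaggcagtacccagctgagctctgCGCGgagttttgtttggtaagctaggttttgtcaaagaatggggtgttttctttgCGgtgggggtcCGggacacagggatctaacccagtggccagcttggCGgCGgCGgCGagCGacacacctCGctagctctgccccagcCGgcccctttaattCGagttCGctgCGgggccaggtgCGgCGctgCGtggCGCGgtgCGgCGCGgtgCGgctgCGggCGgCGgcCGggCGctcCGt
The Kcnj2 promoter (chr11:111065914-111066213, plus strand) holds 18 CG and was covered over its 300 bases by H3K4me3 and H3K4me1 in both experiments. That of Kcnj16 (chr11:110967783-110968082, plus strand), the most upstream of 4 listed starts, holds 3 CG and was covered by no mark. The Kcng3 promoter (chr17:83631846-83632145, minus strand) holds 49 CG and lay wholly within H3K4me3, H3K4me1 and H3K27me3. Kcnk18 (chr19:59219398-59219697, plus strand) has 6 CG there and lay within H3K27me3 only, in both experiments. The start of Kcna2 (chr3:107101317-107101616, plus strand) has 31 CG and was wholly covered by H3K4me3 and H3K4me1. Promoters were listed for 66 of the 91 members, which is fewer than 80%, so a comparison of base composition over the whole set would be void and none is given.

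H3K4me3 and H3K4me1 lay at most potassium channel genes, and for H3K4me3 the share was near that of all genes. H3K4me3 was at an end of 59 of 91 members (64.8%), against 58.6% of all protein-coding genes. With 50% of the window to be covered it was at 47 (51.6%), against 53.0%, which turns the direction. H3K4me1 was at 67 members (73.6%), against 54.5% of all genes. Both H3K4 marks were at 56 members, against 48.8% of all genes, which is 94.9% of the 59 members with H3K4me3, against 83.3% of all genes with H3K4me3. In Exp1 alone H3K4me3 was at 60 members (65.93%), against 59.5% of all genes, and in Exp2 alone at 64 (70.33%), against 60.6%. For H3K4me1 the members numbered 73 (80.22%) in Exp1, against 66.2% of all genes, and 69 (75.82%) in Exp2, against 56.5%.

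H3K27me3 was at an end of 30 members (33.0%), against 23.3% of all genes, and H3K9me3 at 4 members (4.4%), against 13.4%. For H3K27me3 the experiments alone gave 38 members (41.76%), against 29.3%, and 36 (39.56%), against 27.1%, and for H3K9me3 7 members each (7.69%), against 16.7% and 14.8%. Both H3K4me3 and H3K27me3 lay at the same end of 18 members (19.8%), against 5.74% of all genes. Among members with H3K27me3, 20 of 30 (66.7%) also carried H3K4me3 at an end, against 28.6% of all genes with H3K27me3. H3K4me3 without H3K27me3 was found at 39 members (42.9%), against 51.9%, and H3K27me3 without H3K4me3 at 10 members (11.0%), against 16.6%. Neither was at 22 members (24.2%), against 24.8%. Counted in each experiment alone, the bivalent state was at 22 members (24.2%) in Exp1, against 7.83% of all genes, and at 28 (30.8%) in Exp2, against 8.49%.

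**Figure D1:**
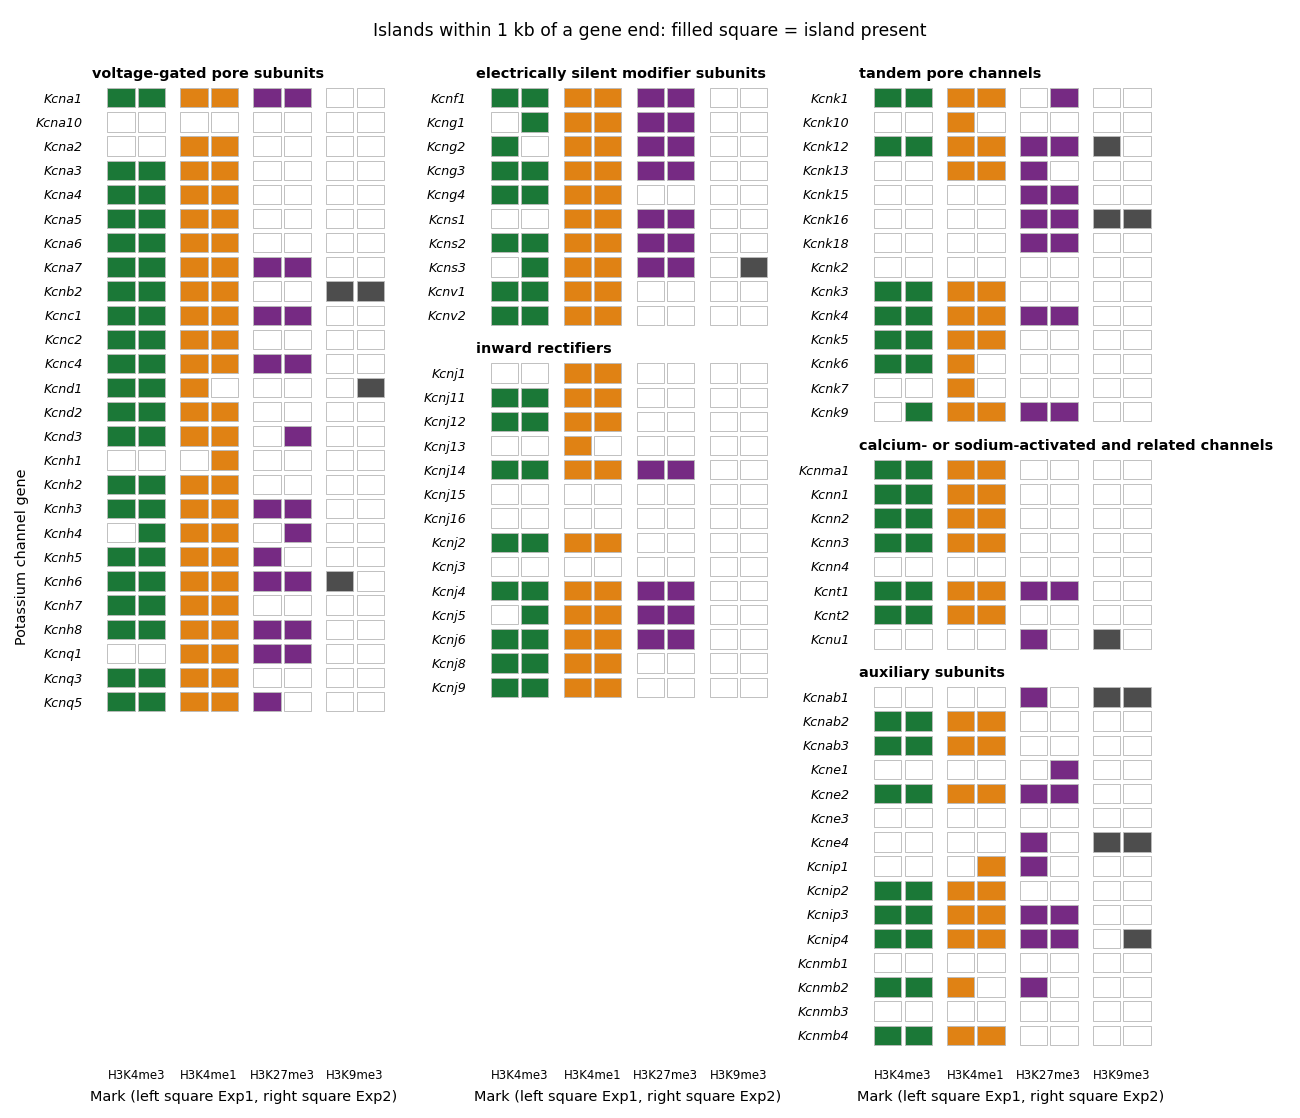
Each row is 1 of 87 potassium channel genes, grouped by class, and each pair of squares is a mark, with Exp1 on the left and Exp2 on the right. A filled square means that an island lay within 1 kb of a gene end in that experiment. H3K4me3 is filled in both at 55 of these genes and H3K9me3 at 4.

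Few members had H3K4me3 islands from the lower range of p in both lists. The p-values of islands are the authors' own and serve here only to rank islands within a list. With only the islands at or below the median p of their list, H3K4me3 stayed at 9 of 91 members (9.89%), against 40.7% of all genes. H3K4me1 stayed at 49 (53.8%), against 32.3% of all genes, H3K27me3 at 21 (23.1%), against 18.8%, and H3K9me3 at 0, against 11.2%. The bivalent state was then at 0 members, against 0.951% of all genes, so none of the 18 bivalent members had islands in that range for both marks in both experiments at 1 end. H3K4me3 without H3K27me3 was then at 9, against 39.4% of all genes, H3K27me3 without H3K4me3 at 21, against 17.5%, and neither at 61 (67.0%), against 41.8%.

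**Figure D2:**
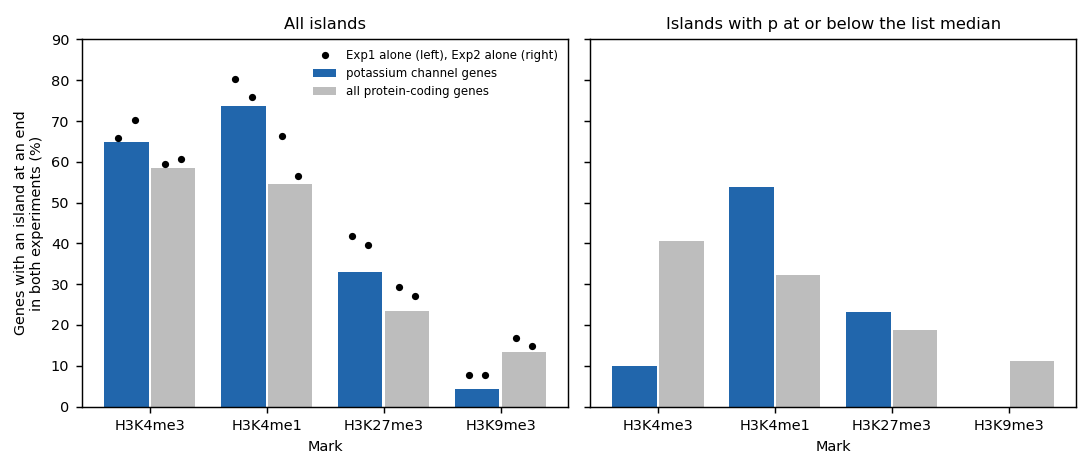
Bars give the percentage of genes with an island at an end in both experiments, for potassium channel genes (blue, left) and all protein-coding genes (grey, right), by mark. Dots show each experiment alone. In the right panel, restricted to islands with p at or below the median of their list, H3K4me3 is at 9.89% of the channel genes and 40.7% of all genes.

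The counts were also taken without close neighbours, at the start alone and by each experiment. Of 59 members with no other protein-coding gene within 5 kb, H3K4me3 lay at 38 (64.4%), against 45.7% of all such genes, and H3K4me1 at 45 (76.3%), against 40.4%. H3K4me3 without H3K27me3 was at 28 of them (47.5%), against 39.1%, so among these genes the members' share was the higher, where over all genes it was the lower. H3K27me3 was at 18 of them (30.5%), against 32.2%, H3K9me3 at 2 (3.39%), against 22.1%, the bivalent state at 9 (15.3%), against 5.93%, and neither at 13, against 28.6%. At the annotated start alone, known for 66 members, H3K4me3 was at 39 (59.1%), against 57.3%, H3K27me3 at 18 (27.3%), against 21.5%, and the bivalent state at 11 (16.7%), against 5.13%. Counting an island in either experiment, H3K9me3 was at 10 members (11.0%), against 18.2%, and the bivalent state at 32 (35.2%), against 10.8%. Where each experiment had to give the same state by itself, the bivalent state was at 18, against 5.75%, H3K4me3 without H3K27me3 at 32 (35.2%), against 47.6%, H3K27me3 without H3K4me3 at 5 (5.49%), against 15.4%, and neither at 15 (16.5%), against 18.0%.

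Among the 9 members that kept H3K4me3 were Kcnab2, Kcnab3, Kcnh2, Kcnh6, Kcnj14, Kcnk1 and Kcnv2. At some of them another protein-coding gene has an end inside the island. At Kcnab2 this is Nphp4, at Kcnab3 Cntrob and Trappc1, and at Kcnj14 Cyth2 and Grwd1, each in both experiments, while at Kcnh6 it is Dcaf7 in Exp1. In Exp2 the widest island of Kcnh6 had a p above the median of its list. The Exp2 island that kept the call was thus another, not checked for ends of other genes. At the start end of Kcnh6, H3K4me3 was called in Exp2 only, so the end marked in both experiments was the other. The islands of Kcnv2, Kcnh2 and Kcnk1 held no end of another protein-coding gene. Over all 59 marked members, the widest H3K4me3 island held no other gene's end in either experiment at 52. That count was not taken over all genes with H3K4me3, so it has no share to stand beside.

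Kcnv2 encodes a silent subunit that joins Shab-type channels in photoreceptors, and its human counterpart is mutated in a cone dystrophy with altered rod responses. It lies on chromosome 19, 27322061 to 27337179, and its H3K4me3 islands were 10.8 kb wide in Exp1 and 8.8 kb in Exp2, covering 71.04% and 56.49% of the gene. Of all genes with H3K4me3, 1.69% had an island at least as wide, by the narrower of the 2 experiments. H3K4me1 covered 100% and 57.81% of Kcnv2, and neither H3K27me3 nor H3K9me3 was found at an end or over the body. The rod gene Nrl, with H3K4me3 of 11.8 and 11.4 kb, also had both H3K4 marks and neither repressive mark at its ends. So did the Müller glia genes Glul (13 and 10.4 kb) and Dkk3 (10.6 and 7.6 kb). The rod genes Sag and Nr2e3 had no H3K4me3 at an end. The part of rods in the islands of Kcnv2 was not tested.

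Other wide H3K4me3 islands lay at genes of several classes. Kcnj14, for a strong inward rectifier (chromosome 7, 45816467 to 45824747), had islands of 14.6 and 13.6 kb that covered the whole gene, together with H3K27me3 of 135 and 365 kb. Kcna3 and Kcna5, for Shaker-type channels, had 6.6 and 7.8 kb and 6.6 and 10 kb, which also covered these short genes whole. In all, 7 of 59 marked members (11.9%) were among the widest 5% of marked genes, which began at 6.4 kb and by ties held 5.08%. Kcnc1, with 6.4 kb in each experiment, was at that limit. The median width by the narrower experiment was 3.2 kb for members and 2.8 kb for all genes with H3K4me3. H3K4me1 was widest at Kcnj14, with 22.6 and 19.6 kb, and Kcnab2, for a beta subunit of Shaker-type channels, had 10.8 and 13.8 kb. Kcnn1 (16.8 and 9.6 kb), Kcnh6 (12.4 and 9.4 kb) and Kcnv2 (24.2 and 8.6 kb) were also among the 6 widest.

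**Figure D3:**
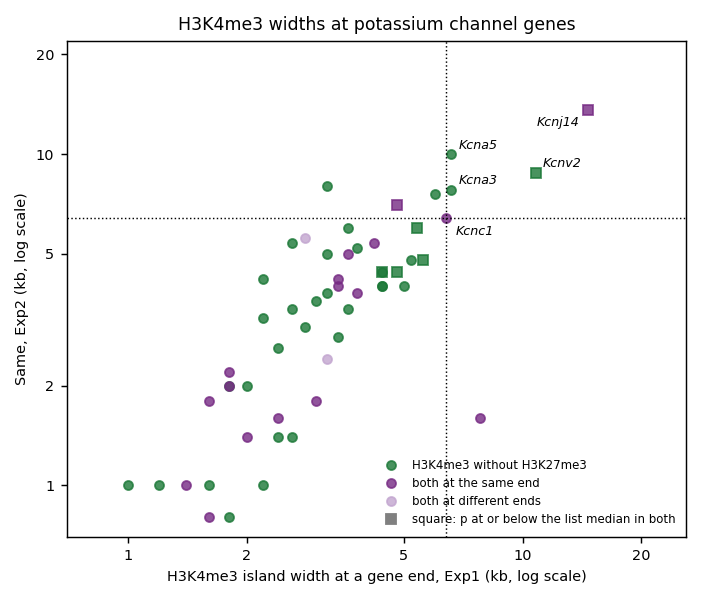
Each point is 1 of 55 channel genes with H3K4me3 at an end, placed by the width of its widest island there in Exp1 and in Exp2 (kb, log axes). Dotted lines mark 6.4 kb, where the widest 5% of all marked genes begins, colours give the joint state with H3K27me3, and squares had an island at or below the median p of its list at an end in both experiments. Kcnj14 and Kcnv2 lie far to the upper right, and at Kcnh6 and Kcnk4 the widest islands of the experiments do not overlap.

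By class, the voltage-gated pore subunits carried H3K4me3 most often. It lay at 25 of 30 of them (83.3%), 6 of 10 silent subunits (60.0%), 8 of 14 inward rectifiers (57.1%), 6 of 14 tandem pore channels (42.9%), 6 of 8 calcium- or sodium-activated channels and 8 of 15 auxiliary subunits (53.3%). Of all genes 58.6% had it, so the silent subunits, inward rectifiers and auxiliary subunits lay near that share. These counts are by gene ends. They leave out the H3K4me3 at listed starts inside Kcnk2, Kcnk10 and Kcnk13 (tandem pore) and inside Kcnab1 and Kcnip1 (auxiliary). The same holds for Kcnj3 (inward rectifiers) and for Kcna2 and Kcnh1 (voltage-gated). H3K27me3 was most frequent among the silent subunits, at 7 of 10, and least among the calcium- and sodium-activated channels, at 1 of 8, against 23.3% of all genes. The classes follow textbook function, they were drawn up with the values known, and their differences were not tested.

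**Figure D4:**
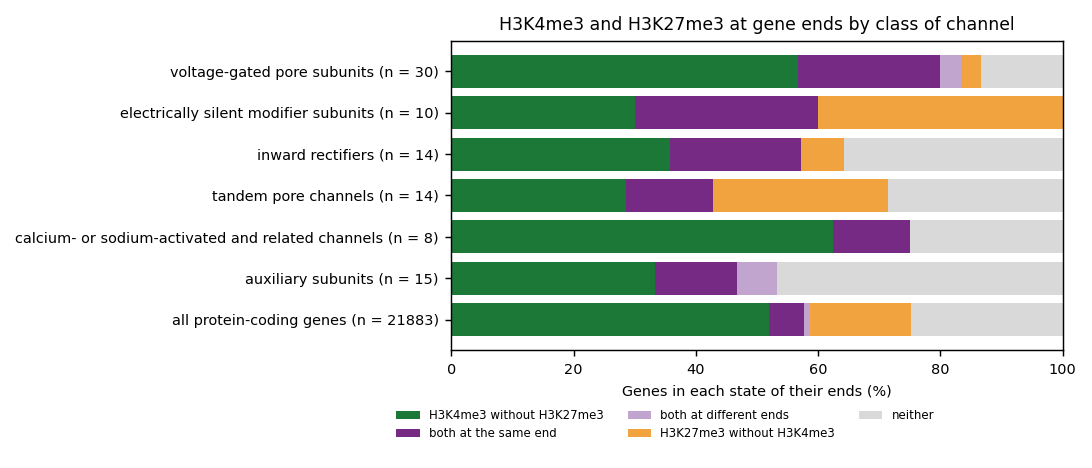
Bars show the percentage of genes in each joint state of H3K4me3 and H3K27me3 at their ends, for 6 classes of channel and for all protein-coding genes. Silent subunits are the class with no gene in the neither state, and the bivalent segment is longer in each channel class than in all genes, where it is 5.74%.

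Shaker-type subunits, the Kcna genes, form delayed rectifier and fast inactivating channels of axons and nerve endings. Kcna3, Kcna4, Kcna5 and Kcna6 had H3K4me3 without H3K27me3, Kcna1 and Kcna7 had both, and Kcna2 and Kcna10 had neither at their ends. Kcna1 had H3K4me3 of 3.6 and 5 kb and H3K27me3 of 15 and 70 kb. Kcna6 had H3K4me3 of 3.2 and 8 kb, and Kcna5 is the third gene of this cluster on chromosome 6, in which Kcna1 alone was in H3K27me3. Kcna10 had no island of any mark at its ends or over its body.

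Kcnb2, for a Shab-type delayed rectifier, had H3K4me3 of 5 and 4 kb at an end. H3K9me3 of 63 and 81 kb lay at the opposite end of this gene in both experiments. Shaw-type channels serve fast-spiking neurons. Of their genes, Kcnc2 (2.6 and 5.4 kb of H3K4me3) had no H3K27me3 at its ends, while Kcnc1 (H3K4me3 6.4 and 6.4 kb, H3K27me3 145 and 180 kb) and Kcnc4 were bivalent. The Shal-type genes Kcnd1, Kcnd2 and Kcnd3, whose channels carry the transient current of dendrites, had H3K4me3 alone of the pair, with 1.8 and 2 kb at Kcnd2 and 3.8 and 5.2 kb at Kcnd3. At Kcnd3 an H3K27me3 island of 55 kb was present in Exp2 only.

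Of the ether-à-go-go family, Kcnh2, Kcnh5 and Kcnh7 had H3K4me3 without H3K27me3, Kcnh3 and Kcnh6 both at the same end, Kcnh8 both at different ends, and Kcnh1 and Kcnh4 neither. Kcnh2, best known for the repolarising current of the heart, had H3K4me3 of 5.6 and 4.8 kb and H3K4me1 over 90.62% and 59.46% of the gene. Kcnh1 had no H3K4me3 at its ends. Among the Kcnq genes, which include those of the neuronal M current, Kcnq3 and Kcnq5 had H3K4me3 alone of the pair and Kcnq1 had H3K27me3 alone (85 and 180 kb). The H3K4me3 islands of Kcnq5 were 3.6 and 3.4 kb wide, and H3K27me3 was present there in Exp1 alone (140 kb).

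The silent subunits do not form channels by themselves and change the gating of Shab-type channels. Kcng1, Kcng2, Kcns1 and Kcns3 had H3K27me3 without H3K4me3, Kcnf1, Kcng3 and Kcns2 had both at the same end, and Kcng4, Kcnv1 and Kcnv2 had H3K4me3 alone of the pair. Kcns3 had the widest H3K27me3 of any member by the narrower experiment, 310 kb in Exp1 and 520 kb in Exp2, and at Kcns2 both islands were 100 kb. H3K27me3 covered a median of 99.67% of the silent subunit genes in both experiments, against 0% in every other class. H3K4me1 lay at 10 of 10 of these genes, those within H3K27me3 included, against 54.5% of all genes. The voltage-gated pore subunits were close to this, with H3K4me1 at 27 of 30. In the other classes the share ran from 7 of 15 auxiliary subunits to 6 of 8 calcium- or sodium-activated channels. At Kcng1 and Kcns3 an H3K4me3 island was present in Exp2 only (2 and 1.8 kb), and at Kcng2 in Exp1 only (1 kb).

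Inward rectifiers pass potassium into the cell more easily than out and are the main buffering channels of glia. Kcnj2, Kcnj8, Kcnj9, Kcnj11 and Kcnj12 had H3K4me3 without H3K27me3, Kcnj4, Kcnj6 and Kcnj14 had both, Kcnj5 had H3K27me3 alone, and Kcnj1, Kcnj3, Kcnj13, Kcnj15 and Kcnj16 had neither. At Kcnj2, for a strong rectifier, H3K4me3 was 2.4 and 2.6 kb wide, and at its relative Kcnj12 2.6 and 3.4 kb. Kcnj16, whose product joins the main glial rectifier, had no island of any of the 4 marks at its ends or over its 59.936 kb. The nearest H3K4me3 to that gene was 36.8 kb away in both experiments, at the neighbouring Kcnj2.

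Kcnj13, known from the pigment epithelium and Müller glia, lacked H3K4me3 and the repressive marks, and H3K4me1 of 2 kb at its end was found in Exp1 only. At Kcnj15 there was again no island, with H3K4me3 240.4 kb away in Exp1 and 155.7 kb in Exp2. The G protein-gated channel genes Kcnj3, Kcnj5, Kcnj6 and Kcnj9 were in 4 different states at their ends, with both experiments required. At its 1 listed start, inside the gene, Kcnj3 had H3K4me3 without H3K27me3, like Kcnj9. At the end of Kcnj5 in H3K27me3, H3K4me3 of 2.2 kb was present in Exp2 only. Kcnj8 and Kcnj11, for the pore of ATP-sensitive channels, had the narrowest H3K4me3 islands of the marked inward rectifiers, 1 kb in each experiment at Kcnj8 and 1.2 and 1 kb at Kcnj11.

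**Figure D5:**
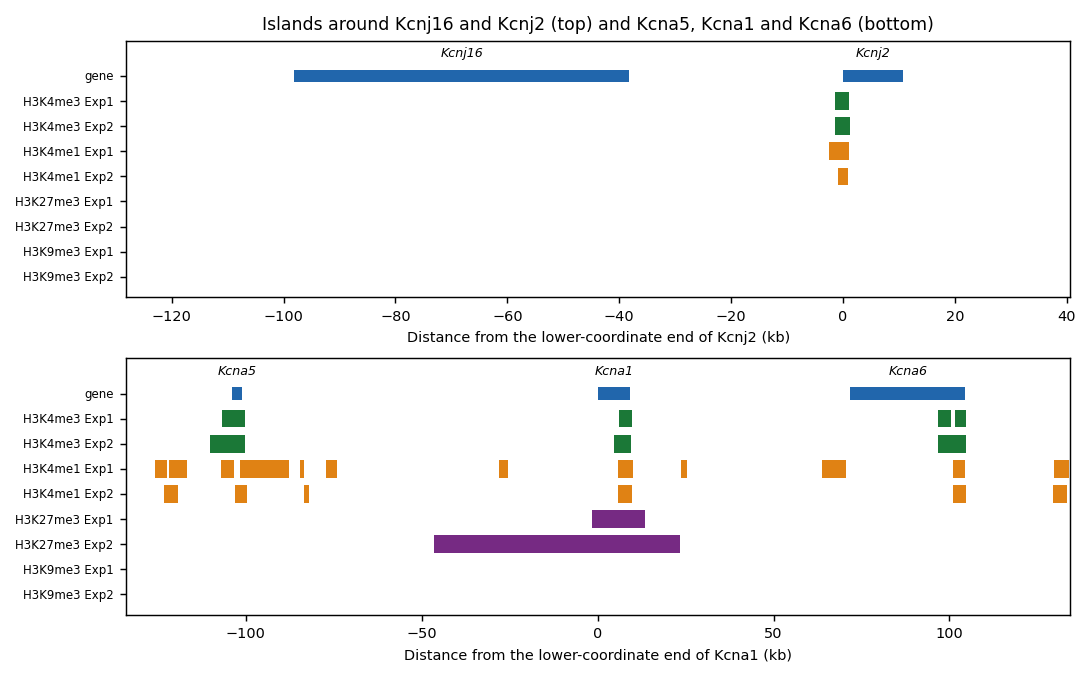
Islands of the 4 marks in each experiment are drawn around Kcnj16 and Kcnj2 (top) and around Kcna5, Kcna1 and Kcna6 (bottom), against the distance from the lower-coordinate end of Kcnj2 or Kcna1 in kb. Kcnj16 has no island and Kcnj2 has H3K4me3 and H3K4me1 at its start, and in the lower map H3K27me3 lies at Kcna1 alone.

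Tandem pore channels carry the background leak that sets the resting potential. H3K27me3 without H3K4me3 lay at Kcnk9, Kcnk15, Kcnk16 and Kcnk18, both at Kcnk4 and Kcnk12, H3K4me3 alone of the pair at Kcnk1, Kcnk3, Kcnk5 and Kcnk6, and neither at Kcnk2, Kcnk7, Kcnk10 and Kcnk13. Kcnk1, for a weak inward-rectifying leak channel (chromosome 8, 125993655 to 126030685), had H3K4me3 of 4.8 and 4.4 kb. It was among the 9 members with low p named above. At Kcnk6 the islands were 2.2 and 1 kb wide. Kcnk4, for a channel gated by stretch and lipids, had its widest H3K4me3 at opposite ends, of 7.8 kb in Exp1, which held ends of Catsperz and Esrra, and of 1.6 kb in Exp2, and an island of each experiment lay at the end marked in Exp2. Its H3K27me3 was 40 kb wide in both experiments, with an authors' p of 0.24 in Exp1 and 0.0133 in Exp2. Kcnk15, Kcnk16 and Kcnk18 lay wholly within H3K27me3 and had no H3K4 mark at their ends, and the H3K27me3 islands were 180 and 175 kb wide at Kcnk15 and 205 and 200 kb at Kcnk12.

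The large-conductance channel gene Kcnma1, whose product opens with calcium and voltage, had H3K4me3 of 3.2 and 5 kb. Kcnn1, Kcnn2 and Kcnn3, for small-conductance channels, had H3K4me3 alone of the pair, with 3.2 and 3.8 kb at Kcnn2, while Kcnn4 had neither. The sodium-activated channel genes differed, with both marks at Kcnt1 (H3K4me3 1.4 and 1 kb, H3K27me3 265 and 290 kb) and H3K4me3 alone of the pair at Kcnt2. Kcnu1, known from sperm, had neither. Its H3K27me3 and H3K9me3 islands at an end were present in Exp1 only, 45 and 54 kb wide. Both marks overlapped its body in both experiments, H3K27me3 over 35.13% and 27.99% of the gene and H3K9me3 over 46.32% and 13.44%.

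Among the 15 auxiliary subunits, H3K4me1 lay at 7 (46.7%), against 54.5% of all genes, and 7 had neither H3K4me3 nor H3K27me3 at their ends, against 24.8% of all genes. Kcnab2, Kcnab3, Kcnip2, Kcnmb2 and Kcnmb4 had H3K4me3 without H3K27me3, Kcne2 and Kcnip4 both at the same end, and Kcnip3 both at different ends. Kcnab1, Kcne1, Kcne3, Kcne4, Kcnip1, Kcnmb1 and Kcnmb3 were these 7. Kcnmb4, which slows the gating of Kcnma1 channels in brain, had H3K4me3 of 4.4 and 4 kb, and Kcnip3, whose product also acts as a transcriptional repressor, 2.8 and 5.6 kb. Kcne1, partner of Kcnq1, had H3K27me3 in Exp2 only, in a 235 kb island that it shared with Kcne2.

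H3K9me3 lay at an end of Kcnab1, Kcnb2, Kcne4 and Kcnk16. Kcne4 and Kcnk16 were covered whole, with widths of 78 and 81 kb at Kcne4 and 36 kb in either experiment at Kcnk16, while at Kcnab1 (51 and 54 kb) and Kcnb2 the islands reached part of these long genes. Of the 4, Kcnk16 alone also had H3K27me3 at an end in both experiments, against 83.7% of all genes with H3K9me3, and over all genes 11.2% had both repressive marks. At Kcnab1 (55 kb) and Kcne4 (110 kb) H3K27me3 was at an end in Exp1 only. By the narrower experiment, H3K9me3 islands had a median width of 57 kb at these 4 members, against 342 kb at all genes with the mark, and H3K27me3 islands 80 kb at 30 members, against 210 kb.

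Several members without H3K4me3 at a gene end had it inside the gene. This was so for 10 of the 32, and at 8 of the 10 the island lay within 1 kb of a start listed for the same gene. Neither count was taken over all genes without H3K4me3 at an end. The 8 were Kcna2, Kcnab1, Kcnh1, Kcnip1, Kcnj3, Kcnk2, Kcnk10 and Kcnk13. At Kcna2 the islands were 6 and 6.4 kb wide and their shared stretch lay 8.8 kb inside the nearest gene end, over the start shown above. At Kcnk2, for a stretch-sensitive leak channel known in Müller glia, they were 2.2 and 1.8 kb wide, 58.6 kb inside, where 3 of its 4 listed starts lie together with an end of the lncRNA gene A430027H14Rik. At Kcnj3 they were 5 and 4.4 kb wide, at Kcnab1 4 and 4.4 kb, at Kcnip1 1.2 and 6.4 kb, at Kcnk10 2.2 and 1.4 kb and at Kcnk13 2 and 3.2 kb. Kcnh1 had islands of 2.2 and 2.6 kb, 1.5 kb inside the gene. Counting listed starts as well as ends, an alternative added after the data were seen, H3K4me3 was at 67 members (73.6%), against 61.3% of all genes, and neither H3K4me3 nor H3K27me3 at 14, against 22.4%. H3K27me3 was then at 31 members (34.1%), against 23.4%, and the bivalent state at 19 (20.9%), against 6.07%. In Kcnq1, for which no start was listed, the island of 5.2 and 3 kb lay 130.1 kb inside the gene at an end of Kcnq1ot1, its imprinted antisense transcript.

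Over the gene body, the members were overlapped more often by each mark, and they were also longer, with a median length of 36.22 kb against 17.17 kb for all genes. H3K4me3 overlapped the body of 68 members (74.7%), against 62.5% of all genes, and H3K4me1 77 (84.6%), against 61.0%. H3K27me3 overlapped 38 (41.8%), against 24.2%, and H3K9me3 18 (19.8%), against 16.1%. With at least 10% of the gene covered, H3K4me3 counted 25 members (27.5%), against 25.8%, H3K4me1 38 (41.8%), against 40.6%, H3K27me3 30 (33.0%), against 22.5%, and H3K9me3 10 (11.0%), against 14.2%, so the shares for the H3K4 marks lay near those of all genes. At least 50% of the gene was covered by H3K27me3 in each experiment at 22 members (24.2%), against 19.8%, by H3K9me3 at 2 (2.2%), against 11.8%, by H3K4me3 at 5 (5.49%), against 5.37%, and by H3K4me1 at 12 (13.2%), against 12.4%. Body overlap by islands in the lower range of p was found at 10 members (11.0%) for H3K4me3, against 43.1%, 61 (67.0%) for H3K4me1, against 40.6%, 24 (26.4%) for H3K27me3, against 19.0%, and 4 (4.4%) for H3K9me3, against 12.2%. H3K27me3 covered 15 members from end to end in both experiments, a count not taken over all genes. H3K4me1 covered most of the long gene Kcnab2 (88.02% and 71.19% of 86.806 kb). No mark was at an end of 16 members, against 19.5% of all genes, and 8 of these 16, which are 8.79% of all members, also had none over the body in both experiments, against 15.5% of all genes. They were Kcna10, Kcne1, Kcnj13, Kcnj15, Kcnj16, Kcnk7, Kcnmb1 and Kcnmb3.

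The other genes of potassium handling, a list of 25 that named pumps, cotransporters, cyclic nucleotide-gated pacemaker channels and partner subunits, had H3K4me3 at 15 (60.0%), against 58.6% of all genes, H3K4me1 at 19 (76.0%), against 54.5%, H3K27me3 at 5, against 23.3%, and H3K9me3 at 0, against 13.4%. The shares for H3K4me3 and H3K27me3 were near those of all genes. The sodium pump beta subunit genes Atp1b1, Atp1b2 and Atp1b3 had H3K4me3 without H3K27me3, with 7.2 and 9 kb at Atp1b2. Slc12a2, Slc12a4 and Slc12a5, for cation-chloride cotransporters, had H3K4me3, and Slc12a7 did not. Hcn3 and Hcn4, for pacemaker channels, were bivalent. Abcc8, for the sulfonylurea receptor that joins Kcnj11, had H3K4me3 like its partner. Abcc9, which joins Kcnj8, had none while Kcnj8 did.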

How the data were processed

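Glast+ retinal cells were profiled in 8 ChIP libraries. Per the submitters' processing notes, islands on mm10 came from SICER, with BWA 0.7.5a, bedtools 2.17, SAMtools 1.3.1 and FastQC also named. The settings and the control were not given in the sources used here. The authors deposited 1 list of islands per library, each island with a p-value, which could be a p or a q since neither is named. Samples were grouped by mark and experiment from their titles.

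Here, island starts and ends, which count from 0, were moved to count from 1. Overlaps with gene ends (1 kb either side, 1 bp enough) and gene bodies were computed in Python 3.11.15 with pandas 2.3.3 and checked on simulated islands. Genes came from RefSeq GRCm38.p6, of whose 21896 protein-coding genes 21883 lay on the listed chromosomes. No significance test was run: counts stand beside those over all genes. Depth is unknown, so no interval was computed. Alternatives were each experiment alone, either experiment, islands at or below the median p of their list, other windows, 50% coverage, the start alone, isolated genes, no sex chromosomes and a combination within each experiment. Named members were those known from retina or glia, the 6 widest per mark, and every member by state, except that a few genes are counted but not reported here by name or drawn singly. An added alternative, an end or any listed start, was chosen after seeing the data, as were the channel classes. Members and lists were chosen with earlier results of these data known.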

Additional observations from a re-analysis of the deposited data

How the results depend on the processing

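The 12 counts of members were recomputed under 15 alternatives, and 93 of 124 values stayed within 1.5 times the count given. With each experiment alone, H3K9me3 at an end was at 7 members in either case and the bivalent state at 22 to 28, against 18 with both required. With an island in either experiment they were at 10 and 32. With islands at or below the median p of their list, the counts were 9 for H3K4me3 at an end, 0 for H3K9me3 at an end, 0 for the bivalent state, 9 for H3K4me3 without H3K27me3, 21 for H3K27me3 without H3K4me3 and 61 for neither. Over the body they were then 10 for H3K4me3, 24 for H3K27me3 and 4 for H3K9me3. The annotated start alone could be used for 66 members and gave H3K4me3 at 39, H3K27me3 at 18 and the bivalent state at 11. Of 59 members with no other protein-coding gene within 5 kb, H3K4me3 was at 38, H3K27me3 at 18, H3K9me3 at 2, the bivalent state at 9 and neither at 13. Both subsets hold fewer genes by construction. At 10% of the gene covered, the body counts were 25 for H3K4me3, 38 for H3K4me1 and 10 for H3K9me3, and at 50% they were 5, 12, 22 for H3K27me3 and 2. With listed starts added, neither was at 14. As a replicate block, in which marks were combined within each experiment and both had to give the same state, the bivalent state stayed at 18 members, H3K4me3 without H3K27me3 was at 32, neither at 15 and H3K27me3 without H3K4me3 at 5, against 10. These experiment numbers tie libraries by name only. Files hold islands and no counts, so a missing island shows only that none was called at the depth of that library.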

Other observations

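Among 9 pairs of neighbouring potassium channel genes less than 200 kb apart, 2 pairs had the same state at their ends, Kcnip1 with Kcnmb1, which overlap, and Kcna2 with Kcna10. These 2 matches hold for gene ends only. At listed starts inside the gene, Kcna2 and Kcnip1 had H3K4me3. H3K27me3 covered 70.97% of Kcnip1 in Exp1 and 78.29% in Exp2, and it reached an end in Exp1 only. Kcna10 and Kcnmb1 had no mark at their ends or over the body in both experiments. At its listed start Kcna2 had H3K4me3 without H3K27me3, the state of its other neighbour Kcna3. Other pairs of genes were not counted for comparison. Kcnk5 had H3K4me3 without H3K27me3, and Kcnk16, 79.6 kb away, had H3K27me3 and H3K9me3 without H3K4me3. Kcnj5 had H3K27me3 of 20 and 75 kb at an end, which covered 14.76% of the gene in Exp1 and 100% in Exp2. Kcnj1, a channel gene known from kidney, 28 kb away, had H3K4me1 of 7.2 and 6.6 kb as the only mark at its ends in both experiments.

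Some members differed between the experiments. H3K4me3 was at an end in Exp1 only at Kcng2, and in Exp2 only at Kcng1, Kcnh4, Kcnj5, Kcnk9 and Kcns3. H3K27me3 was at an end in Exp1 only at 8 members, of which the first alphabetically are Kcnab1, Kcne4, Kcnh5, Kcnip1, Kcnk13 and Kcnmb2, and in Exp2 only at 6, among them Kcnd3, Kcne1, Kcnh4 and Kcnk1. H3K4me1 was found in Exp1 only at Kcnd1, Kcnj13, Kcnk6, Kcnk7, Kcnk10 and Kcnmb2, and in Exp2 only at Kcnh1 and Kcnip1. H3K9me3 was found in Exp1 only at Kcnh6, Kcnk12 and Kcnu1, and in Exp2 only at Kcnd1, Kcnip4 and Kcns3. At Kcnd1, the member on the X chromosome, the Exp2 island was 132 kb wide.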
